A study of Mus musculus with 6 samples.

Results

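The natriuretic peptide system of the heart was followed through 6 genes: the peptide genes Nppa and Nppb, the processing protease gene Corin and the receptor genes Npr1, Npr2 and Npr3. They were taken from the deposited table by symbol, and all 6 of 6 were found among its 23404 genes. The libraries were made from C57BL/6J mouse heart preparations labelled as cardiomyocytes. Cells had been sorted into a gate bright in green autofluorescence and dim in forward scatter (FITChigh) and a gate dim in green autofluorescence and bright in forward scatter (FITCdim), with 3 libraries of each. Forward scatter is a measure that grows with particle size. Neither gate carries a transgene, a deletion or a drug in the labels, which give no age, and the purpose stated in the series title is the purification of ventricular cardiomyocytes.

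Atrial natriuretic peptide (from Nppa) and B-type natriuretic peptide (from Nppb) are hormones that heart muscle cells secrete when they are stretched, and that lower blood pressure and blood volume. Nppa is expressed above all in atrial myocytes and, in the ventricles, in the conduction system and the inner wall, while Nppb is made in both chambers and rises with load. The membrane protease corin cuts the atrial precursor into the active hormone. Both hormones act through Npr1, a receptor with its own guanylyl cyclase that makes cyclic GMP. Npr2 is the matching cyclase receptor for C-type natriuretic peptide, and Npr3, a receptor without a cyclase domain that marks the endocardium among other cells, takes the peptides up for degradation.

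Nppa and Nppb are neighbours on mouse chromosome 4 and are read in the same direction, which makes their upstream sequence of interest beside their values. Coordinates are those of mm10 (GRCm38). Nppa lies at 148000722 to 148002079 and Nppb at 147985788 to 147987205, both on the plus strand, 13.5 kb apart. The 250 bases before the Nppa start (chr4:148000472-148000721, plus strand, RefSeq, GRCm38.p6) are printed with motif matches in capitals. For Nppb a stretch of 26 bases is shown that holds every match in its window (chr4:147985795-147985820, plus strand). It runs from 105 to 80 bases before the RefSeq start, which lies 112 bases inside the gene as GENCODE annotates it.
Nppa: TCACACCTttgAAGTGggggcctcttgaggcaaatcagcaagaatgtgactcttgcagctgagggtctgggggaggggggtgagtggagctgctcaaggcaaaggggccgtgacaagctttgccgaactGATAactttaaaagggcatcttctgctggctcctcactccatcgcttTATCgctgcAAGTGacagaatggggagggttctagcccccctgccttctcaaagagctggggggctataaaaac
Nppb: GGAATGcagctGATAaatcagaGATA

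The motifs were searched on both strands of the 250 bases before each of 32851 RefSeq starts. GATA, the core of the GATA factor site, was found 2 times in the Nppa window and 2 times in that of Nppb, and in 53.6% of all windows. AAGTG, the core of the NK2 homeobox site, was found 2 times for Nppa and was not matched for Nppb, against 40.7% of all windows. TCACACCT, the T-box core, opened the Nppa sequence and occurs in 1.12% of windows, while CATTCC, the M-CAT site of TEAD factors, was matched for Nppb (on its minus strand) and occurs in 12.6%. TGANTCA, the AP-1 site, and the CArG box of serum response factor had no match in any of the 6 members' windows, against 6.75% and 1.47% of all windows. No match lay over another one. A match describes letters and does not show a bound site.

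Values are adjusted read counts, the deposited unit, which were brought to a common library size by the authors and are not divided by gene length. The 6 libraries held 1589825 to 2931045 reads in FITChigh and 1705626 to 3345994 in FITCdim, as recovered from the table. Differences were tested on log2(value + 1) with limma over the 12907 genes that reached a value of 1 in 3 libraries or more, and all 6 members passed that filter. A fold change on this scale understates the change of genes with low values. The adjusted p is the Benjamini-Hochberg value over all of these genes, with a threshold of 0.05. The labels do not say how many mice stand behind a library, so a p-value here speaks only of the spread between the sequenced libraries. Cardiomyocyte markers were present in both gates, with summed values of 361051 to 383170 in FITChigh and 218726 to 279824 in FITCdim over 10 genes. Markers of other cells were also present in both, and their sums were lower in FITChigh. The 12 endothelial markers summed to 612 to 837 adjusted read counts in FITChigh and 4653 to 5096 in FITCdim, the 9 fibroblast markers to 46.0 to 70.5 in FITChigh and 383 to 732 in FITCdim, and the 8 macrophage markers to 85.2 to 119.5 in FITChigh and 437 to 964 in FITCdim.

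The system split between the gates. Nppa, Npr1 and Npr3 fell in FITChigh, to between 0.157 and 0.296 times the FITCdim mean. Nppb, Corin and Npr2 did not pass the test. Of the 6 members 3 were called lower and 0 higher, while of all genes tested 13.5% were called lower and 2.51% higher. In 5 of the 6 the values of the gates did not overlap, which was so for 31.6% of all genes. The median log2 fold change of the members was -1.0, against -0.01 over all genes tested.

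**Figure D1:**
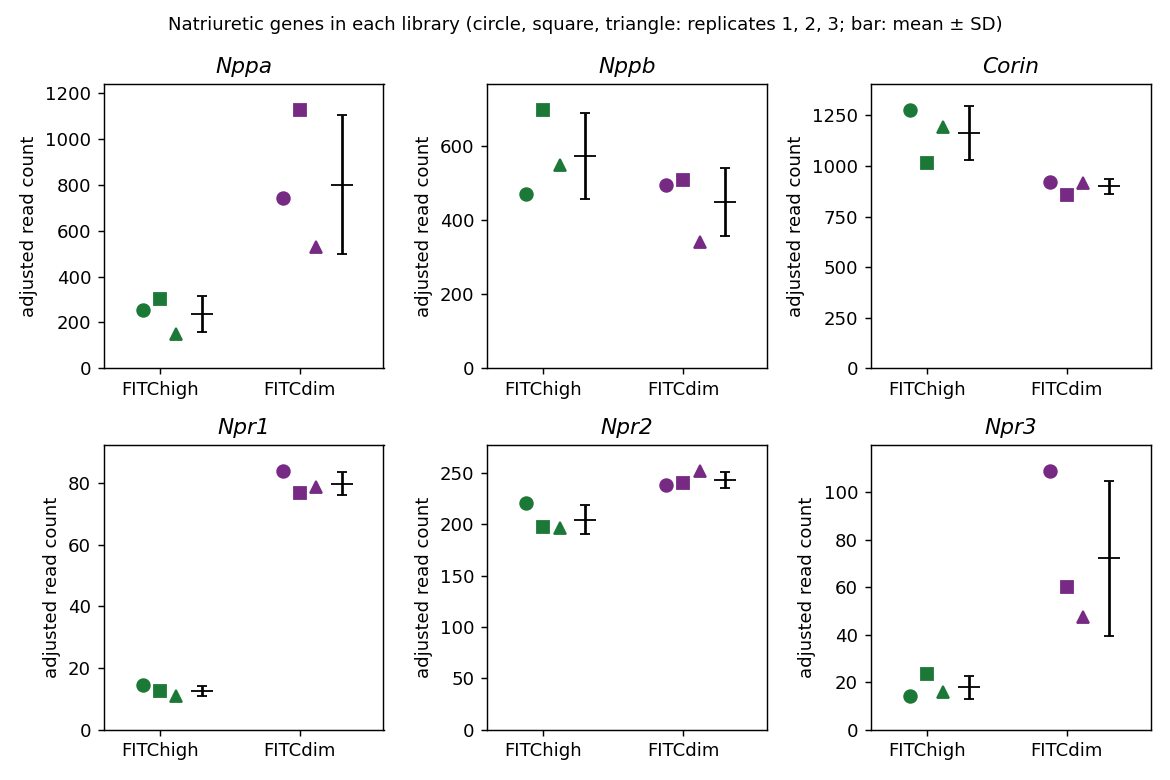
Adjusted read counts of the 6 natriuretic genes (vertical axes, each from 0) in the 3 FITChigh and the 3 FITCdim libraries; symbols mark replicates 1, 2 and 3, and the bar shows the mean ± SD. Nppa, Npr1 and Npr3 sit far lower in FITChigh, whereas Nppb overlaps between the gates.

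Among the hormones, Nppa had 255, 304 and 151 adjusted read counts in FITChigh replicates 1, 2 and 3, against 742, 1129 and 530.2 in FITCdim replicates 1, 2 and 3. The gates did not overlap, and in each gate replicate 2 was the highest library and replicate 3 the lowest. The means were 237 ± 78.4 in FITChigh and 800.2 ± 303 in FITCdim (n = 3 each, ± SD), a log2 fold change of -1.74 (SE 0.25, limma adjusted p = 0.00013). In these sorted populations, fewer cells of a type and less RNA per cell cannot be told apart. The antisense gene Gm13054 overlaps Nppa and was not analysed here. The library kit keeps strand, but the use of strand in counting is not given in the sources used here, so reads from the pair cannot be told apart. The same holds where predicted genes overlap Corin, Npr1, Npr2 and Npr3.

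Nppb had 469.5, 697 and 548 adjusted read counts in FITChigh, against 493, 508 and 341 in FITCdim, in the order of the replicates. The gates overlapped, since FITChigh replicate 1 lay below FITCdim replicates 1 and 2. The means were 572 ± 115 in FITChigh and 447 ± 92.5 in FITCdim (n = 3 each, ± SD). The log2 fold change of 0.36 did not pass the test (95% interval -0.01 to 0.73, limma adjusted p = 0.2), and the interval leaves room for no difference as well as for a higher level in FITChigh.

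The order of the 2 hormone genes within a library therefore differed between the gates, although only Nppa passed the test. The ratio of Nppa to Nppb was 0.543, 0.437 and 0.275 in FITChigh replicates 1, 2 and 3, against 1.51, 2.22 and 1.56 in FITCdim. Every FITChigh library held less Nppa than Nppb and every FITCdim library more. The mean ratio was 0.418 ± 0.135 in FITChigh and 1.76 ± 0.4 in FITCdim (n = 3 each, ± SD), a difference of -2.11 on the log2 scale, with an exact two-sided permutation p = 0.1, the smallest that 20 assignments of 3 against 3 libraries allow. Per kilobase of exon, with 865 bases for Nppa and 781 for Nppb in GENCODE, the ratio of the levels was 0.378 ± 0.122 in FITChigh and 1.59 ± 0.361 in FITCdim (n = 3 each, ± SD), so the order of the 2 genes within each gate was the same on that scale.

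**Figure D2:**
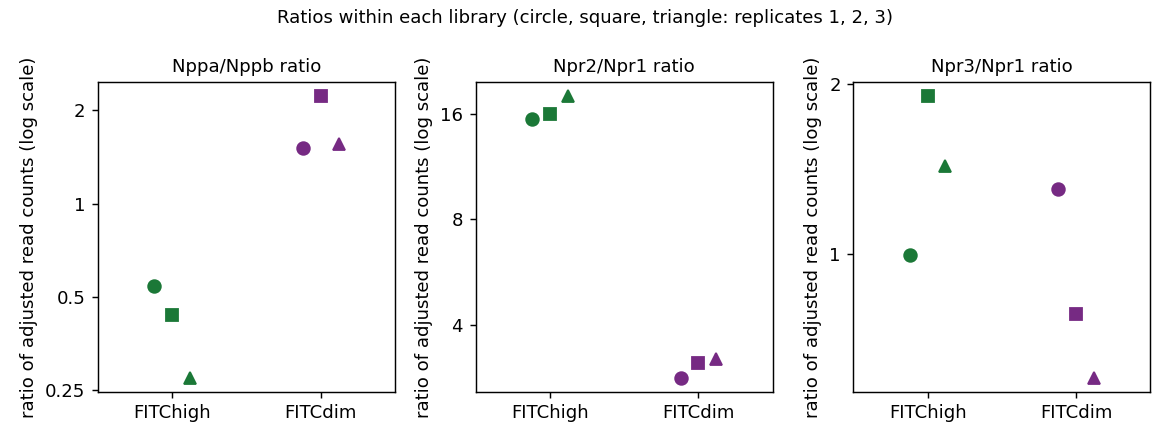
Ratios of adjusted read counts within each library (log scale) for Nppa over Nppb, Npr2 over Npr1 and Npr3 over Npr1, with FITChigh libraries left of FITCdim ones and symbols for replicates 1, 2 and 3. The first ratio is under 1 in FITChigh and over 1 in FITCdim, the second is 15.4 to 17.9 in FITChigh and 2.84 to 3.20 in FITCdim, and the third overlaps.

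Corin (chromosome 5, 72300025 to 72504473, minus strand) had 1279, 1015 and 1191 adjusted read counts in FITChigh, against 920.4, 858 and 917 in FITCdim. Every FITChigh library was above every FITCdim library, by a modest margin. The means were 1162 ± 135 in FITChigh and 898 ± 35.2 in FITCdim (n = 3 each, ± SD). The log2 fold change of 0.36 did not pass over all genes (SE 0.13, 95% interval 0.09 to 0.64, limma adjusted p = 0.072). It passed without FITChigh replicate 2, the lowest of that gate (adjusted p = 0.035). It also passed with a block by title tag, a tag whose meaning the labels do not give. Its size was 0.16 when all libraries were scaled to the same total (adjusted p = 0.5) and 0.15 after quantile normalization (adjusted p = 0.46). The common total moved the median of all genes to -0.20, so relative to the median gene Corin was much the same there. Quantile normalization moved that median to 0.13, close to the value of Corin.

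Among the receptors, Npr1 (chromosome 3, 90450591 to 90465866, minus strand) had the largest difference of the 6 genes. It had 14.4, 12.4 and 11.0 adjusted read counts in FITChigh, against 84.0, 76.9 and 78.7 in FITCdim. The gates lay far apart and each was tight. The means were 12.6 ± 1.68 in FITChigh and 79.9 ± 3.69 in FITCdim (n = 3 each, ± SD), a log2 fold change of -2.58 (SE 0.24, limma adjusted p = 1.6e-06). The FITChigh values rest on 15, 8 and 14 reads, and the FITCdim values on 138, 62 and 69 reads. Summed over a gate this is 5.24 RPM (reads scaled to a common depth) in FITChigh, with an exact binomial 95% interval of 3.69 to 7.22, and 39.0 RPM in FITCdim, with 34.4 to 43.9, where the intervals cover counting error only.

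Npr3 (chromosome 15, 11839896 to 11907287, minus strand) had 14.3, 23.5 and 15.8 adjusted read counts in FITChigh, against 109, 60.0 and 47.4 in FITCdim. The gates did not overlap, but FITCdim replicate 1 stood well above the other two of its gate. The means were 17.8 ± 4.95 in FITChigh and 72.2 ± 32.6 in FITCdim (n = 3 each, ± SD), a log2 fold change of -1.90 (SE 0.31, limma adjusted p = 0.00035). Without FITCdim replicate 1 the log2 fold change was -1.56 (adjusted p = 0.0015). The values rest on 15, 16 and 20 reads in FITChigh and on 175, 48 and 41 reads in FITCdim.

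Npr2 (chromosome 4, 43631935 to 43651244, plus strand) had 221, 197 and 196 adjusted read counts in FITChigh, against 238, 240.1 and 252 in FITCdim. The gates did not overlap, yet they lay close together. The means were 205 ± 13.7 in FITChigh and 243 ± 7.45 in FITCdim (n = 3 each, ± SD), and the log2 fold change of -0.25 did not pass the test (95% interval -0.54 to 0.04, limma adjusted p = 0.25). When all libraries were scaled to the same total it was -0.45 and passed (adjusted p = 0.03). That rescaling moved the median of all genes to -0.20, so relative to the median gene the difference was much the same on both scales.

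**Figure D3:**
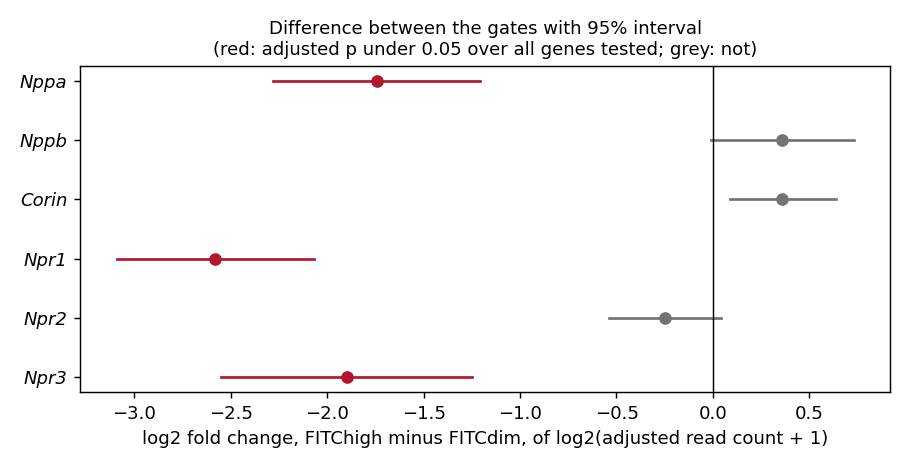
Log2 fold change of each natriuretic gene, FITChigh minus FITCdim (horizontal axis), with its 95% interval from limma. Nppa, Npr1 and Npr3 (red) passed the test over all genes at -1.74, -2.58 and -1.90, and Nppb, Corin and Npr2 (grey) did not.

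The receptors thus stood in another proportion in each gate. The ratio of Npr2 to Npr1 was 15.4, 15.9 and 17.9 in FITChigh, against 2.84, 3.12 and 3.20 in FITCdim, a difference of 2.42 on the log2 scale without overlap (exact two-sided permutation p = 0.1, the smallest possible). The ratio of Npr3 to Npr1 was 0.994, 1.90 and 1.43 in FITChigh, against 1.30, 0.781 and 0.603 in FITCdim, and the gates overlapped (difference 0.71 on the log2 scale, exact two-sided permutation p = 0.2). Per kilobase of exon, Npr2 made up 90.8% ± 1.23 of the summed level of the 3 receptors in FITChigh and 68.9% ± 4.25 in FITCdim (n = 3 each, ± SD). Npr1 made up 5.11% ± 0.381 in FITChigh and 20.7% ± 0.0492 in FITCdim, and Npr3 4.11% ± 1.25 in FITChigh and 10.4% ± 4.23 in FITCdim (n = 3 each, ± SD). The Npr1 shares rest on 15, 8 and 14 reads in FITChigh and on 138, 62 and 69 in FITCdim. Their SDs are smaller than counting error alone would give, so the shares are less precise than these SDs.

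Levels can be ordered across genes only per length. In FITChigh, Nppb led with 601 to 892 adjusted read counts per kilobase of exon. Nppa with 174 to 352 and Corin with 204 to 258 overlapped each other, Npr2 followed with 52.6 to 59.1, and Npr1 with 2.71 to 3.53 and Npr3 with 1.97 to 3.24 overlapped at the low end. In FITCdim, Nppa with 613 to 1305 and Nppb with 436 to 650.3 overlapped at the top. Corin followed with 173 to 185, Npr2 with 63.8 to 67.5, Npr1 with 18.9 to 20.7 and Npr3 with 6.55 to 15.1, with no overlap between these 4. Exon lengths are those of GENCODE protein-coding transcripts, and the annotation used for counting is not given in the sources used here.

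Most atrial and conduction markers were lower in FITChigh, as Nppa was. Among atrial markers 6 of the 9 tested fell and 0 rose, with a median log2 fold change of -2.69. Over all genes tested 13.5% were called lower and 2.51% higher. Myl7, the atrial regulatory myosin light chain, and Myl4, its essential partner, stood at -3.23 and -3.22, and Dkk3 at -3.28. In FITCdim 7 of the 9 were highest in replicate 2, as Nppa was, and in FITChigh 4 of the 9. Of 6 conduction genes 2 were highest in replicate 2 in FITChigh and 2 in FITCdim. In that list 4 fell, led by Cntn2, a contactin of Purkinje fibres, at -3.30, and 1 rose, Irx3 at 0.66 (adjusted p = 0.041, a call lost with a common total, where adjusted p = 0.16, and without FITChigh replicate 1 or 2 or FITCdim replicate 1). Of those that fell, Etv1 (-1.46) was no longer called after quantile normalization (adjusted p = 0.065). Gja5, which fell, stands in both lists and rests on 10 reads in FITChigh and 89 in FITCdim. The part of atrial and conduction cells in the Nppa difference was not tested.

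Nppa was set against the summed atrial list within each library. The ratio was 0.132 ± 0.0463 in FITChigh and 0.247 ± 0.0493 in FITCdim (n = 3 each, ± SD), a log2 difference of -0.95. This sum, however, came for 88.5% to 95.2% in FITChigh and for 60.5% to 73.4% in FITCdim from Pam, Tbx5 and Kcnj3. Those are the 3 tested atrial genes that were not called lower. With them left out, a choice made after seeing the data that removes the genes with the smallest changes and so fixes the direction of the shift, the ratio to the other 7 atrial genes was 1.72, 1.54 and 1.80 in FITChigh, against 0.851, 0.745 and 0.739 in FITCdim, a log2 difference of 1.12, given as a description with no test. For the whole list the exact two-sided permutation p = 0.1 was the smallest possible.

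Like the receptors Npr1 and Npr3, markers of non-myocyte populations fell. All 12 endothelial markers fell in FITChigh (median log2 fold change -2.73), as did 8 of 8 tested fibroblast markers (-2.73), 8 of 8 macrophage markers (-2.47) and 3 of 4 tested endocardial markers (-2.38). Smooth muscle and pericyte markers fell in 7 of 8 (-2.51) and epicardial markers in 4 of 4 tested (-3.46), while 2 of 10 cardiomyocyte markers rose (0.52) and 0 of 6 ventricular markers passed (0.32). Over all genes tested 13.5% were called lower and 2.51% higher. Beside these shares the ventricular count of 0 of 6 says little. The cardiomyocyte calls were Ckmt2 at 0.70, lost after quantile normalization (adjusted p = 0.25), and Tnni3 at 0.66, lost after that step (0.39), with a common total (0.12), with no filter (0.081) and without FITChigh replicate 1 or 2 or FITCdim replicate 1 or 3. Ventricular Myl2 (0.49, adjusted p = 0.16) was called with a robust fit (0.029), voom (0.022) and a block by title tag (0.0039). Cardiomyocyte Myh6 (0.75, adjusted p = 0.14) was called with the same fits (0.0013, 0.00081 and 0.0041). Myh6 was also called with a filter of at least 10 (0.035) and without FITCdim replicate 3 (0.035). Neither was called in the other alternatives, and Myh6 stood at 0.0 after quantile normalization. The ratio of Npr1 to the summed endothelial markers overlapped between the gates. It was 0.0235, 0.0155 and 0.0131 in FITChigh, against 0.0165, 0.0165 and 0.0162 in FITCdim (log2 difference 0.04, exact two-sided permutation p = 1.0), and the log2 difference was -0.20 without FITChigh replicate 1. The ratio of Npr3 to the summed endocardial markers was 0.118, 0.199 and 0.180 in FITChigh, against 0.151, 0.122 and 0.149 in FITCdim, with overlapping gates (log2 difference 0.21, exact two-sided permutation p = 0.5). The endocardial sum was not made up alike in the gates. Vwf averaged 365 of 511 in FITCdim and 42.1 of 109 in FITChigh, where Nfatc1, which was not called, was the largest term (51.3). Ratios to this sum therefore do not show whether a receptor followed the endocardium. FITCdim replicate 1, where Npr3 was highest, was also the highest FITCdim library for 8 of 8 fibroblast, 8 of 8 macrophage, 8 of 12 endothelial and 3 of 4 endocardial markers. In FITChigh, replicate 2 was highest for Npr3 and for 1 of 8 fibroblast, 5 of 8 macrophage, 4 of 12 endothelial and 2 of 4 endocardial markers. Npr1 was highest in replicate 1 of each gate, as were 1 of 12 endothelial markers in FITChigh and 8 of 12 in FITCdim. The fibroblast marker Tcf21 was too low to test, with 0 reads over FITChigh and 4 over FITCdim. The part of these cells in the receptor differences was not tested.

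Npr2 stood in another proportion to these lists in each gate. Its ratio to the summed endothelial markers was 0.281 ± 0.0696 in FITChigh and 0.05 ± 0.00283 in FITCdim (n = 3 each, ± SD), a log2 difference of 2.46. Against endocardial and fibroblast markers the log2 difference was 1.92 and 2.78, and no gates overlapped in these 3 ratios. Each had an exact two-sided permutation p = 0.1, or 0.225 adjusted over the 9 ratios of receptors to lists, so none could pass in this design. Of the other 4 ratios, that of Npr3 to fibroblast markers did not overlap between the gates (log2 difference 1.07, exact p = 0.1), and those of Npr3 to endothelial markers (0.75), Npr1 to endocardial markers (-0.51) and Npr1 to fibroblast markers (0.36) did.

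**Figure D4:**
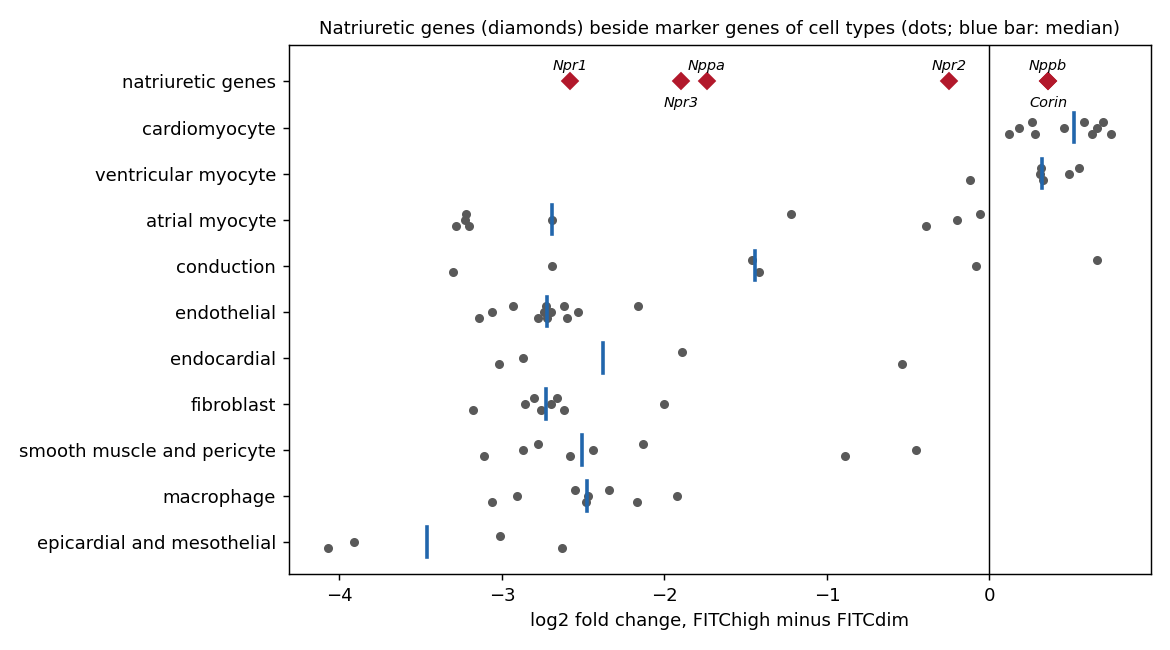
Log2 fold change, FITChigh minus FITCdim (horizontal axis), of the 6 natriuretic genes (diamonds) and of marker genes of 10 cell types (dots, with the median as a blue bar). Npr1 at -2.58 lies among the medians of endothelial and fibroblast (-2.73 each), smooth muscle and pericyte (-2.51) and macrophage (-2.47) markers. Npr3 and Nppa lie nearer to 0, and Nppb and Corin at 0.36 lie between the ventricular median of 0.32 and the cardiomyocyte median of 0.52.

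Other genes that make, cut or degrade these peptides included a pair that fell and a pair without a read. Nppc, the C-type peptide gene, and Ostn, a peptide ligand of the clearance receptor, were listed at 0 in all 6 libraries. Among the other genes of processing and degradation 2 of the 5 tested fell and 0 rose, with a median log2 fold change of -0.13. Over all genes tested 13.5% were called lower and 2.51% higher. Pcsk6, a convertase that activates corin, had 3.85, 0.221 and 2.37 adjusted read counts in FITChigh, against 33.3, 14.2 and 15.1 in FITCdim (log2 fold change -2.91, limma adjusted p = 0.00098). It rests on 7 reads over FITChigh and 76 over FITCdim. Dpp4, a peptidase that trims B-type natriuretic peptide, rests on 8 reads over FITChigh and 72 over FITCdim (log2 fold change -2.77, adjusted p = 0.0032). Without both libraries whose titles carry no tag, a choice made after seeing the data, it stood at -1.66 (adjusted p = 0.064). Ide, the insulin-degrading enzyme and the member with the highest values, stood at 427 ± 109 in FITChigh and 392 ± 146 in FITCdim (n = 3 each, ± SD; adjusted p = 0.73).

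Downstream, genes of cyclic GMP signalling were lower or did not pass. In this list 11 of the 19 tested genes fell and 0 rose, while over all genes tested 13.5% were called lower. The median log2 fold change of the list was -1.19. Endothelial markers (12 of 12 lower, median -2.73) and smooth muscle and pericyte markers (7 of 8 lower, median -2.51) moved the same way, and their part in this count was not tested. Genes of the arm that nitric oxide uses were among those that fell. Nos3, endothelial nitric oxide synthase, had 21.1, 14.3 and 15.0 adjusted read counts in FITChigh, against 152, 147 and 114 in FITCdim (log2 fold change -2.97, limma adjusted p = 2.2e-07). Gucy1a3 and Gucy1b3, the subunits of the soluble guanylyl cyclase, stood at -2.75 and -2.51 (adjusted p = 8.3e-06 and 0.00057). Among phosphodiesterases, Pde9a, which is selective for cyclic GMP, stood at -2.64 on only 3 reads in FITChigh and 35 in FITCdim, Pde5a at -2.24 on 4 reads in FITChigh and 36 in FITCdim, and Pde2a, which cyclic GMP stimulates, at -0.82 (adjusted p = 0.00085). Pde1c, the phosphodiesterase of this list with the highest mean over all 6 libraries, although Pde2a was higher in FITCdim (238 ± 12.5, n = 3, ± SD), stood at 236 ± 35.4 in FITChigh and 191 ± 25.9 in FITCdim (n = 3 each, ± SD; log2 fold change 0.30, adjusted p = 0.23).

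Of the transcription factors known to act on Nppa or Nppb, most did not pass the test. Among the 18 tested 2 rose, 3 fell and 13 missed the threshold, and the median log2 fold change was 0.06. Over all genes tested 2.51% were called higher and 13.5% lower, and the share of regulators called lower was near that background. The T-box repressors Tbx2 and Tbx3, known to act on Nppa, fell. Tbx2 had 0.931, 1.66 and 3.31 adjusted read counts in FITChigh, against 17.7, 13.9 and 19.3 in FITCdim (log2 fold change -2.66, limma adjusted p = 0.00037, on 6 reads in FITChigh and 57 in FITCdim). Tbx3 averaged 15.1 ± 0.953 in FITChigh and 42.4 ± 5.65 in FITCdim (n = 3 each, ± SD), a log2 fold change of -1.42 (adjusted p = 0.0011). Nfatc4, an effector of calcineurin, also fell, on 3 reads in FITChigh and 22 in FITCdim (-1.96, adjusted p = 0.018), a call lost after quantile normalization (adjusted p = 0.15) and without FITChigh replicate 2, FITCdim replicate 1 or FITCdim replicate 2.

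The activators Gata6 and Hand2 rose, Gata6 with 338, 292 and 327 adjusted read counts in FITChigh against 218, 209 and 254 in FITCdim (log2 fold change 0.49, limma adjusted p = 0.023), and Hand2 with 443, 447 and 404 in FITChigh against 207, 254 and 361 in FITCdim (0.69, adjusted p = 0.011). Both calls were lost with libraries rescaled to a common total (adjusted p = 0.21 for Gata6 and 0.056 for Hand2). That rescaling moved the median of all genes to -0.20, so relative to the median gene both differences were much the same. The call of Gata6 was also lost without FITChigh replicate 1 or 3 or FITCdim replicate 1 or 2, and that of Hand2 without FITChigh replicate 1 or FITCdim replicate 1. Gata4, the member with the highest values, stood at 466 ± 57.7 in FITChigh and 457 ± 62.7 in FITCdim (n = 3 each, ± SD; adjusted p = 0.92). Genes of myocardial stress often accompany Nppb in loaded hearts. Of these, 0 of the 8 tested passed in either direction, against 16.1% of all genes tested (median log2 fold change of this list 0.08). Ankrd1, the one with the highest values, stood at 3379.7 ± 274 in FITChigh and 2921 ± 249 in FITCdim (n = 3 each, ± SD; adjusted p = 0.36).

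None of the 7 tested genes beside Nppa and Nppb passed the test (median log2 fold change -0.04). Most genes tested did not pass either, since 16.1% of all were called in either direction. Clcn6, a chloride channel family gene next to Nppa on the side away from Nppb, had 17.2, 11.3 and 13.5 adjusted read counts in FITChigh, against 18.1, 18.6 and 18.3 in FITCdim (log2 fold change -0.38, limma adjusted p = 0.47). The gene 2510039O18Rik, next to Nppb on the other side, stood at 0.21 (adjusted p = 0.4). Mfn2, a mitochondrial fusion gene and the most read of the neighbours, stood at 3161 ± 245 in FITChigh and 2802 ± 144 in FITCdim (n = 3 each, ± SD; adjusted p = 0.45).

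**Figure D5:**
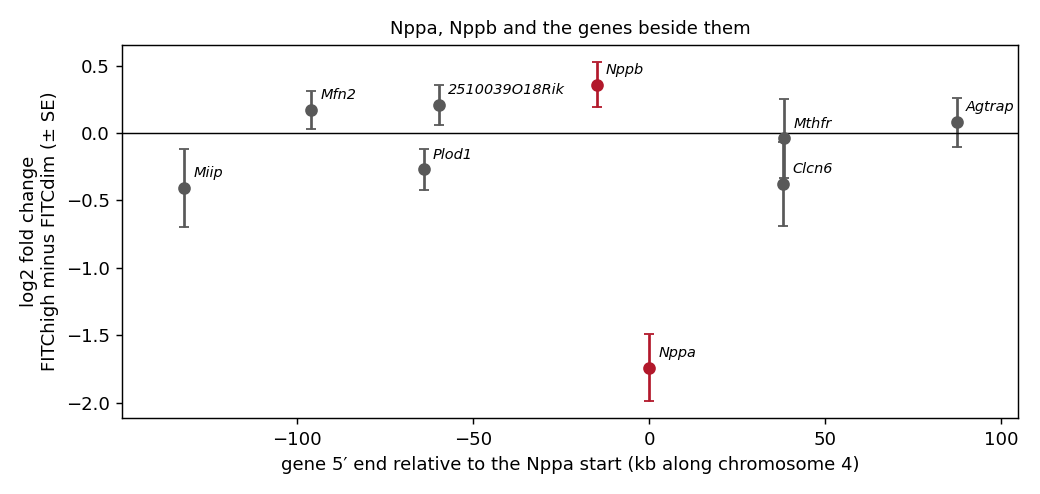
Log2 fold change, FITChigh minus FITCdim (vertical axis, ± SE), of Nppa, Nppb (red) and the tested genes beside them (grey), against the distance of each 5′ end from the Nppa start in kilobases along chromosome 4. Nppa at -1.74 lies apart from the other 8 genes, which lie between -0.41 and 0.36.

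The genes most like each member in profile were found by the root mean square difference between log2(value + 1) profiles over the 6 libraries, each centred on its own mean, among 8234 genes with a mean of at least 20. They were Prcp, Vat1 and B4galt4 for Nppa (differences 0.228, 0.25 and 0.274), Commd9, Spint2 and Rexo2 for Nppb (0.0485, 0.0603 and 0.0625) and Gbe1, Slc12a7 and Tmem63b for Corin (0.0201, 0.0342 and 0.0380). For the receptors they were Sp100, Tshz2 and Gbp2 for Npr1 (0.124, 0.130 and 0.146), Capn1, Lman2 and Sulf2 for Npr2 (0.0363, 0.0419 and 0.0469), and Id3, H19 and Map3k6 for Npr3 (0.0978, 0.205 and 0.223). Nppa was the member whose nearest gene was farthest. H19, an imprinted noncoding RNA, had 193 adjusted read counts in FITCdim replicate 1, against 69.5 and 68.2 in FITCdim replicates 2 and 3, the same standing apart of that library as for Npr3.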

How the data were processed

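Polyadenylated RNA of sorted cells was sequenced as stranded paired reads, per the labels' protocols. STAR 2.5, edgeR and mm10 were used, per the submitters' processing notes, and the read counter, with its annotation, is not given in the sources used here. The deposited signal value per gene is a read count adjusted by the authors to a common library size, with column totals of 2333473 to 2443707 in FITChigh and 2030583 to 2112872 in FITCdim. Of 23410 gene lines 6 were garbled and left out. Columns were matched by sample title, and replicates are numbered in accession order.

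Whole reads were found again by undoing a negative binomial quantile step (dispersion 0.0203). In every library 100% of values came out whole within 0.1. All pairs of replicates differed by more than sampling noise, with chi-square values of 3.63 to 6.09 per degree of freedom.

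The test was limma 3.58.1 (limma-trend, R 4.3.3, two-sided, no block) with Benjamini-Hochberg adjustment, checked on simulated data. The simulation used a single dispersion and changed as many genes up as down. It therefore cannot speak to how scaling moves the calls in these data. Single ratios had exact permutation tests (scipy 1.17.1). Symbols in older form (Gucy1a3, Gucy1b3) are printed as the table has them. Motifs and promoter windows come from RefSeq, positions and exon lengths from GENCODE, both on the same build.

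The members and gene lists were chosen with earlier results of these data known. Named genes are the 6 members, the gene of highest mean in every list, up to 3 called genes per list with the greatest change (mean 1 or more), and the 3 genes most like each member. Not all of these are printed. Other genes named were chosen after their values were seen. Alternatives were other pseudocounts (0.5 and 5), filters, scalings, robust and voom fits, a block by title tag and leaving out each library.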

Additional observations from a re-analysis of the deposited data

How the results depend on the processing

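Nppa, Npr1 and Npr3 kept their direction and stayed under the threshold in all 16 alternatives of the limma fit, with log2 fold changes of -2.01 to -1.45, -2.78 to -2.28 and -2.15 to -1.42. Leaving out each library in turn gave -2.01 to -1.45, -2.67 to -2.50 and -2.15 to -1.56. Nppb ranged from 0.15 to 0.57, Corin from 0.15 to 0.46 and Npr2 from -0.45 to -0.22. Same-tag libraries of the gates (title tags none, 1-2 and 3-4) had correlations of their deviations of 0.07, 0.13 and 0.17. Libraries with different tags had -0.12 to -0.01. Because one same-tag pair was under the limit of 0.1, the tags were not used to pair libraries. Each library correlated best with its own tag, a hint from the data, and the labels do not say what the tags mean. With the replicate block, Nppb (0.36, adjusted p = 0.041) and Corin (0.36, adjusted p = 0.0052) were called, and 1064 genes were higher and 2059 lower. Corin was called without FITChigh replicate 2 (0.46; 0.29 to 0.46 leaving out libraries), and Npr2 with a common total (-0.45).

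Of all genes, 324 were higher and 1748 lower. A common total gave 41 higher (1.84% of calls, against 15.6%) and quantile normalization 467 higher (27.8%), and these scalings moved the median over all genes, -0.01, to -0.20 and 0.13. With a common total, Irx3 (0.46) and Tnni3 (0.46) lost their calls, while relative to the median gene their differences were much the same. Leaving out single libraries gave 67 to 341 higher and 1152 to 1672 lower, where FITChigh replicate 1 left out gave 67 higher, FITChigh replicate 2 gave 185, and FITCdim replicate 1 gave 148 higher and 1152 lower. Without both libraries whose titles carry no tag, a choice made after seeing the data, 15 were higher and 921 lower, with fewer samples in the fit. There Dpp4 (-1.66, adjusted p = 0.064), Pde5a (-1.97, adjusted p = 0.079) and Nfatc4 (-1.76, adjusted p = 0.26) were no longer called lower. The same held for Etv1 (-1.34, adjusted p = 0.073) and Gja5 (-2.43, adjusted p = 0.053). Ckmt2 (0.67, adjusted p = 0.11), Tnni3 (0.6, 0.25), Gata6 (0.42, 0.31), Hand2 (0.49, 0.25) and Irx3 (0.32, 0.56) were no longer called higher.

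The log2 difference of Nppa relative to atrial markers reversed to 1.12 without Pam, Kcnj3 and Tbx5, and that of Npr1 relative to endothelial markers ranged from -0.20 to 0.22 when single libraries were left out. The other ratios kept their direction in every alternative. With exact sign-flip tests as the block, the smallest possible p is 0.25. Genes that did not pass the test changed sign: Gata4 (-0.17 with a common total, -0.09 after quantile normalization, -0.07 to 0.14 leaving out libraries), Ide (-0.06 with a common total, -0.03 to 0.43 leaving out libraries), Mfn2 (-0.03 and -0.15 under those scalings), Ankrd1 (-0.08) and Clcn6 (0.03) after quantile normalization. Causes were not tested. In FITChigh, Npr1 and Npr3 rest on 37 and 51 reads in all, which limits their precision.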
